A study of Drosophila melanogaster with 6 samples.

Results

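Glutathione S-transferase (GST) genes were compared between larval salivary glands (SG), whose cells endocycle, and brains plus imaginal discs (B-D), whose cells divide by mitosis. Members were the genes whose symbol begins with Gst, a class letter (D, E, O, S, T or Z) and a number, and the count table held 35 of them among 17493 genes. By class they were 11 Delta (GstD), 14 Epsilon (GstE), 3 Omega (GstO), 1 Sigma (GstS), 4 Theta (GstT) and 2 Zeta (GstZ) genes, all annotated as protein coding. RNA came from SG (n = 3 libraries) and B-D (n = 3 libraries) of larvae in the last instar that were still feeding, strain y1 w67c23. Strain, temperature and age (4 days after egg laying) were shared and no treatment is named, so tissue is the only difference given between the groups. Both tissues were dissected from the same larvae, and B-D is itself a mixture of organs. The study calls the 3 samples of each tissue biological replicates, and the number of larvae in a library is not given in the sources used here. The p-values measure the spread between these libraries. In bulk RNA, fewer cells of a type and less RNA per cell cannot be told apart.

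GSTs join the tripeptide glutathione to electrophilic compounds, which makes them more soluble and easier to export, and many also reduce lipid peroxides. The Delta and Epsilon classes are specific to insects and arthropods and have expanded by tandem duplication, and they are best known for the metabolism of insecticides and plant toxins. The other classes have relatives in mammals: Sigma acts on products of lipid peroxidation, Omega has thioltransferase-like activity, and Zeta isomerizes maleylacetoacetate in the breakdown of tyrosine. In flies, the transcription factor CncC, made from cnc and held back by Keap1, raises many detoxification genes, GstD1 among them.

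The 6 libraries held between 45023997 and 56583711 counts. Levels are given as CPM, the counts of a gene relative to a library total that TMM (trimmed mean of M values) had corrected, in the order replicate 1, 2 and 3 of each tissue. Calls required an adjusted p no larger than 0.05 and a log2 fold change of 0.5 or more up or down. The 10 most abundant genes took 28.0% to 31.2% of the counts in SG and 12.9% to 13.7% in B-D. Without TMM the log2 fold change of every gene moved by about -1.10, and folds are therefore relative to that shift. Of 7 salivary gland markers 5 were called higher. The glue genes Sgs5 and Sgs7 were called with the replicate number as a block (adjusted p = 0.00176 for Sgs5 and 0.00531 for Sgs7). Neither was called without the block, with TMM or with library size alone. Sgs3, among the 5, had 11.4, 2283 and 9447 CPM in SG, overlapped with B-D and was not called with library size alone. The 7 markers summed to 2935, 13182 and 44191 CPM in SG, against 89.2, 188 and 440 CPM in B-D. All 7 fat body markers were called higher, with summed levels of 278925, 226317 and 187019 CPM in SG, against 4364, 711 and 1658 CPM in B-D. All 7 neuron, 5 imaginal disc, 5 hemocyte and 5 muscle markers were called lower in SG. Of 3 glia markers 2 were called lower and moody higher, but with library size alone moody was called lower (log2 fold change -0.52). Of the markers tested, 1 of 2 gut and 1 of 2 Malpighian tubule markers were called lower. The other gut marker, mex1, was not called in this fit but was called lower with the block (adjusted p = 0.00592). DESeq2 and library size alone called mex1 lower as well, and library size alone also called the tubule marker ct lower (-0.83).

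Most GST genes were higher in SG with TMM scaling, and 15 of the 34 tested had a negative fold with library size alone. Of 34 members with enough counts to test, 24 were called higher, 6 lower and 4 neither. The 24 are 70.6% of the members tested, against 34.5% of all 11369 genes tested, and the 6 are 17.6%, against 35.3%. The median log2 fold change was 1.46 over the members and -0.03 over all genes tested. The libraries of SG and B-D did not overlap in 32 of 34 members (94.1%), 26 above and 6 below, against 81.2% of all genes tested. With library size as the only scale, 16 members (47.1%) were called higher, against 14.0% of all genes, and 9 (26.5%) lower, against 62.5%, with medians of 0.37 and -1.13. The remaining member, GstE10, had 2, 14 and 4 counts in SG, against 19, 4 and 0 counts in B-D, too few to test.

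**Figure D1:**
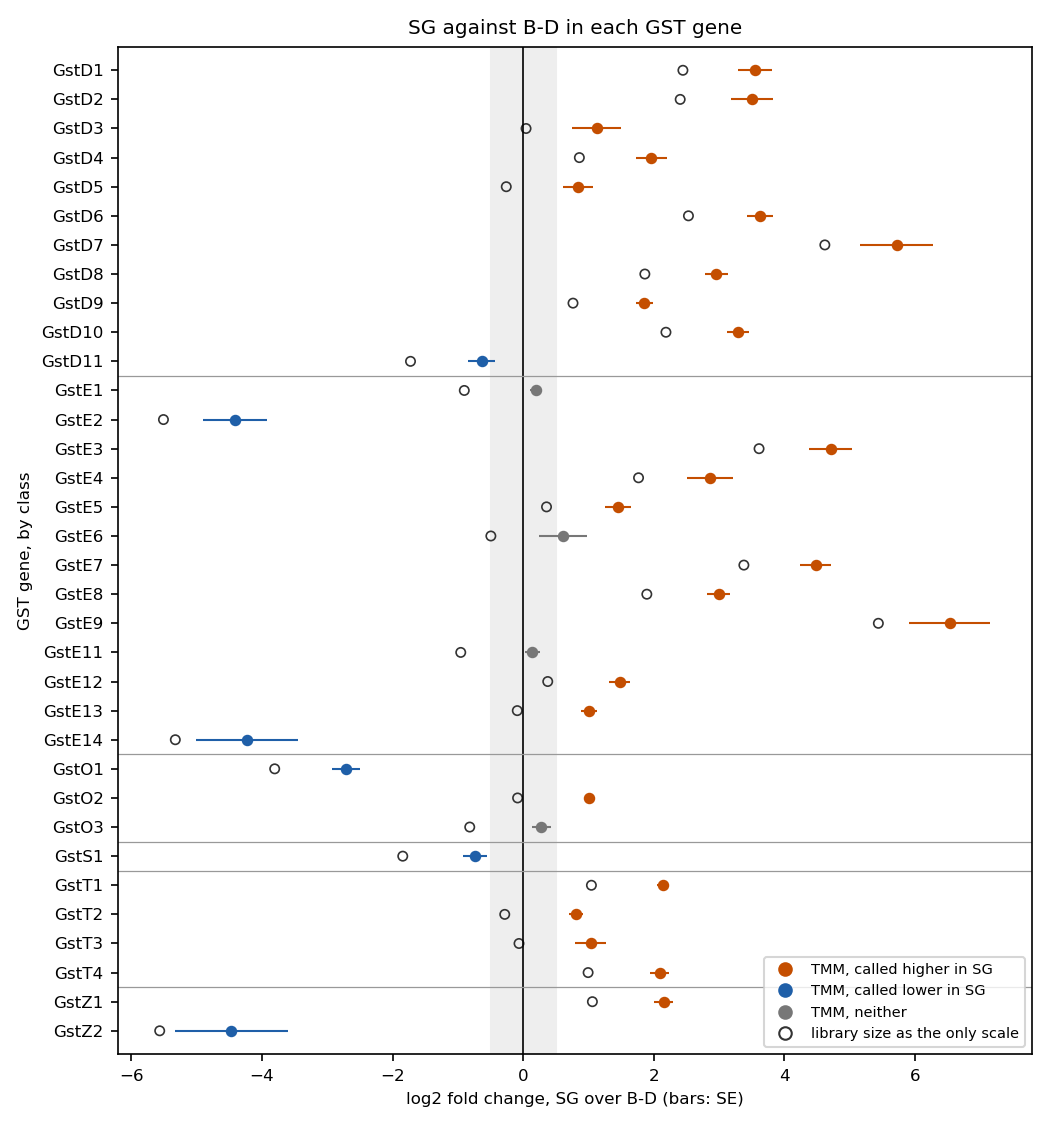
Log2 fold change, SG over B-D, of the 34 GST genes tested, by class. Filled points with SE bars are from the TMM fit, and open points have library size as the only scale. The grey band marks changes under 0.5, GstE9 (6.53) lies farthest to the right and GstZ2 (-4.47) farthest to the left.

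GST genes took 0.446%, 0.406% and 0.317% of all counts in SG, against 0.225%, 0.203% and 0.215% in B-D. These are means of 0.389 ± 0.066% in SG and 0.214 ± 0.011% in B-D (SD, n = 3 each). The tissues did not overlap, and an exact two-sided permutation test gave p = 0.1, the smallest that 3 libraries against 3 allow. GstD1 alone made up 0.234 ± 0.059% of counts in SG and 0.0429 ± 0.0054% in B-D. Without it, the other members together took 0.156 ± 0.0070% of counts in SG and 0.171 ± 0.0065% in B-D. With the 10 most abundant genes of each library removed from the total, a setting chosen after seeing the data, these members took 0.221 ± 0.015% in SG and 0.197 ± 0.0071% in B-D, and with TMM they summed to 2284 ± 164 CPM in SG and 1170.1 ± 45.8 CPM in B-D. The direction of this difference therefore depends on the scale.

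The make-up of the family differed as well. Of all GST counts, GstD1 made up 59.3 ± 5.6% in SG and 19.99 ± 1.6% in B-D, and class D as a whole 72.4 ± 2.9% in SG and 28.9 ± 1.9% in B-D. Class Z held 0.794 ± 0.36% of GST counts in SG and 23.5 ± 2.0% in B-D, and class S held 2.97 ± 0.34% in SG and 19.4 ± 0.67% in B-D. The share of class E overlapped between the tissues, at 16.1 ± 0.94% in SG and 15.6 ± 0.57% in B-D. As a share of all counts, classes D, E and T were higher in SG and classes O, S and Z lower, without overlap, each at the exact p = 0.1 that is the smallest possible (0.1 after Benjamini-Hochberg adjustment over 6 classes). Class O turned with TMM, at 199 ± 5.77 summed CPM in SG and 121 ± 9.59 summed CPM in B-D, and without the 10 most abundant genes its share overlapped between the tissues (exact permutation p = 0.4).

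**Figure D2:**
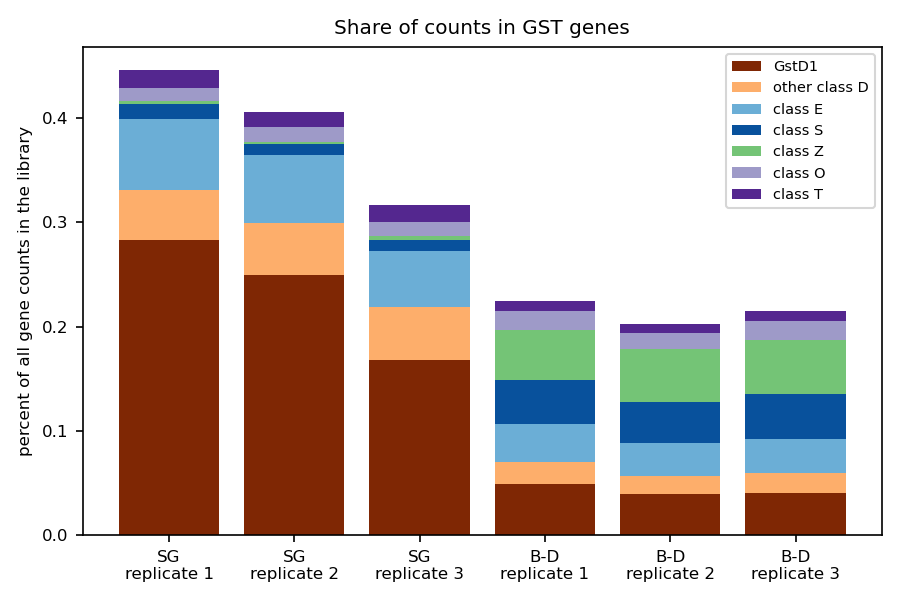
Percent of all gene counts in each library that fell on GST genes, with GstD1 apart from the rest of class D. The 3 SG libraries reach 0.317% to 0.446% and the 3 B-D libraries 0.203% to 0.225%, and most of each SG bar is GstD1.

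Of the Delta genes, 10 of 11 were called higher in SG and 1 lower with TMM (median log2 fold change 2.96), and of these only GstD5 changed direction with library size alone. For this and the following class counts, the shares over all genes tested with TMM were 34.5% higher and 35.3% lower. GstD1 (FBgn0001149, chromosome 3R, 12367817 to 12369268), which metabolizes DDT and the lipid peroxidation product 4-hydroxynonenal, was the member with most counts in SG. In B-D it came first per kb of exon, but GstZ2, a longer gene, had the higher mean CPM. GstD1 had 4264, 3628 and 2398 CPM in SG, against 336, 266 and 277 CPM in B-D. The lowest SG library was several times above the highest B-D library (log2 fold change 3.55 ± 0.26, adjusted p = 9.28e-05), and the mean was 11.7-fold higher in SG.

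GstD7 (FBgn0010043, chromosome 3R, 12378500 to 12379255) had the largest change of the class, 261, 234 and 154 CPM in SG, against 7.14, 2.79 and 2.39 CPM in B-D (log2 fold change 5.72 ± 0.56, adjusted p = 2.39e-04). Its 3 SG libraries lay far above B-D, where replicate 1 stood above the others, and without that library the log2 fold change was 6.43. GstD6 had 46.0, 34.8 and 43.97 CPM in SG, against 4.05, 3.28 and 2.76 CPM in B-D (log2 fold change 3.63 ± 0.20, adjusted p = 4.54e-05). GstD2 had 41.9, 54.6 and 32.4 CPM in SG, against 4.92, 3.93 and 2.53 CPM in B-D (log2 fold change 3.50 ± 0.32, adjusted p = 1.98e-04). GstD10, one of the 3 genes of the array read from the minus strand, had 177, 159 and 127 CPM in SG, against 15.5, 14.1 and 17.96 CPM in B-D (log2 fold change 3.29 ± 0.17, adjusted p = 4.15e-05). None of these genes overlapped between the tissues, and each was more than 9-fold higher by the ratio of means.

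Smaller changes were measured in the rest of the class. GstD8 was scarce, with 3.48, 3.84 and 3.42 CPM in SG, against 0.436, 0.452 and 0.489 CPM in B-D (log2 fold change 2.96 ± 0.18, adjusted p = 5.63e-05). GstD4 had 19.9, 14.3 and 11.9 CPM in SG, against 4.24, 4.25 and 3.35 CPM in B-D (log2 fold change 1.96 ± 0.23, adjusted p = 4.97e-04). GstD9 had 75.1, 87.3 and 101 CPM in SG, against 22.7, 24.2 and 25.9 CPM in B-D (log2 fold change 1.86 ± 0.13, adjusted p = 9.20e-05). All 3 were called higher also with library size as the only scale, whereas GstD3 and GstD5 were not. GstD3 had 87.4, 127 and 244 CPM in SG, against 78.4, 64.9 and 66.6 CPM in B-D, so that the SG libraries spread almost 3-fold and replicate 1 lay close to B-D (log2 fold change 1.13 ± 0.38, adjusted p = 0.0325). Its log2 fold change with library size alone was 0.04, and its call was lost when any 1 B-D library was left out (adjusted p = 0.0551, 0.0823 and 0.0810 without replicates 1, 2 and 3). With the replicate number as a block, which pairs the tissues, GstD3 was not called either (adjusted p = 0.0735). GstD5 had 9.68, 7.45 and 8.67 CPM in SG, against 5.95, 4.88 and 3.60 CPM in B-D (log2 fold change 0.84 ± 0.23, adjusted p = 0.0150), and its direction turned with library size alone (-0.26).

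GstD11 was the Delta gene called lower. It was scarce, with 12, 10 and 10 counts in SG, against 37, 32 and 42 counts in B-D (log2 fold change -0.63 ± 0.21, adjusted p = 0.0319). The tissues did not overlap, but the call was lost when any 1 of the 6 libraries was left out, with adjusted p between 0.0625 and 0.137, and in DESeq2 (adjusted p = 0.124) and limma-voom (adjusted p = 0.0748). It was also lost with the replicate block (adjusted p = 0.0912).

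**Figure D3:**
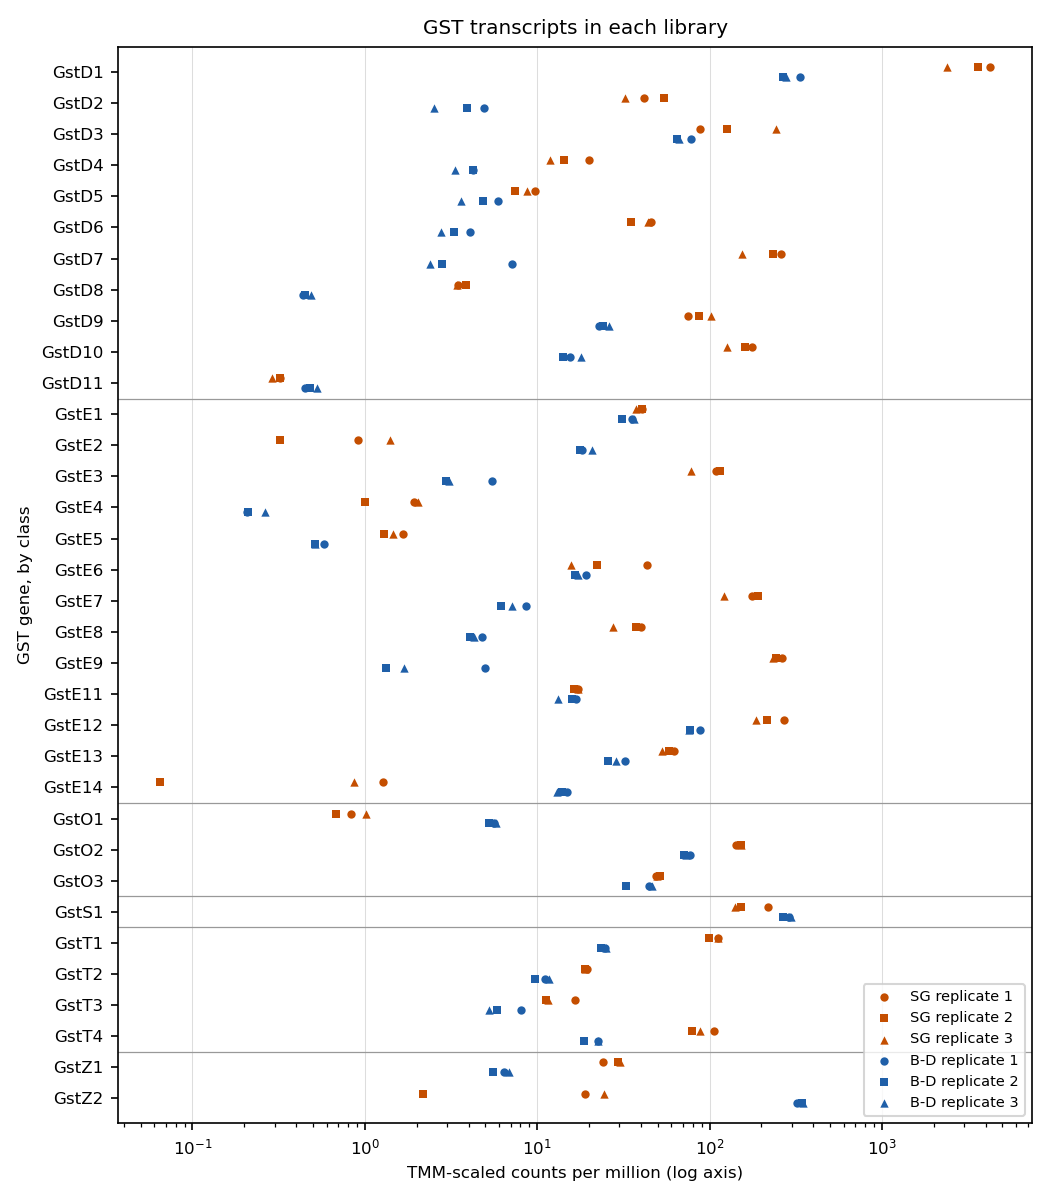
TMM-scaled CPM (log axis) of the 34 GST genes tested in each of the 3 SG and 3 B-D libraries, by class. GstD1 lies at 2398 CPM or more in every SG library, and GstZ2, GstE14 and GstE2 are the genes whose SG points lie farthest below B-D, with SG replicate 2 lowest.

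Of the Epsilon genes, 8 of 13 tested were called higher, 2 lower and 3 neither with TMM (median log2 fold change 1.45), and GstE1, GstE6, GstE11 and GstE13 changed direction with library size alone. GstE9 (FBgn0063491, chromosome 2R, 18409048 to 18409835) had the largest increase of the whole family, 263, 244 and 233 CPM in SG, against 4.96, 1.33 and 1.68 CPM in B-D (log2 fold change 6.53 ± 0.62, adjusted p = 2.19e-04). Its means were 247 ± 15.0 CPM in SG and 2.65 ± 2.00 CPM in B-D (SD, n = 3 each), and without B-D replicate 1, the highest of that tissue, the log2 fold change was 7.39. An annotated overlap with imd on the other strand covers 5.08% of the gene's exons. GstE3 had 109.6, 114 and 78.4 CPM in SG, against 5.50, 2.97 and 3.07 CPM in B-D (log2 fold change 4.71 ± 0.33, adjusted p = 8.59e-05). GstE7 had 177, 190.3 and 122 CPM in SG, against 8.64, 6.17 and 7.10 CPM in B-D (log2 fold change 4.48 ± 0.24, adjusted p = 4.30e-05). GstE8 had 40.2, 37.6 and 27.6 CPM in SG, against 4.81, 4.10 and 4.32 CPM in B-D (log2 fold change 2.99 ± 0.18, adjusted p = 5.29e-05). In each of these 4 genes the lowest SG library was several times the highest B-D library.

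GstE4 and GstE5 moved in the same direction at a level near the lower end of the family. GstE4 had 1.94, 1.00 and 2.03 CPM in SG, against 0.206, 0.211 and 0.263 CPM in B-D (log2 fold change 2.86 ± 0.35, adjusted p = 5.42e-04), from 72, 31 and 70 counts in SG, against 17, 14 and 21 counts in B-D. GstE5 had 1.67, 1.29 and 1.45 CPM in SG, against 0.582, 0.512 and 0.514 CPM in B-D (log2 fold change 1.45 ± 0.20, adjusted p = 8.97e-04), and was no longer called with library size alone (0.36).

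Epsilon genes outside the array behaved differently from one another. GstE12, the third most abundant Epsilon gene per kb in SG, had 269, 215 and 187 CPM in SG, against 88.6, 77.0 and 75.6 CPM in B-D (log2 fold change 1.48 ± 0.16, adjusted p = 3.33e-04). GstE13 had 62.1, 58.4 and 52.9 CPM in SG, against 32.1, 25.6 and 28.5 CPM in B-D (log2 fold change 1.01 ± 0.12, adjusted p = 4.67e-04). Neither was called with library size alone, where GstE12 had a log2 fold change of 0.38 and GstE13 turned to -0.09. GstE11 had 17.3, 16.3 and 17.2 CPM in SG, against 16.8, 16.02 and 13.3 CPM in B-D (log2 fold change 0.14 ± 0.12, adjusted p = 0.316), and its tissues overlapped. GstE1 of the array was not called either, with 40.8, 40.5 and 37.2 CPM in SG, against 35.7, 31.2 and 36.5 CPM in B-D, the SG libraries just above B-D (log2 fold change 0.20 ± 0.10, adjusted p = 0.108). Both were called lower with library size alone, at -0.96 for GstE11 and -0.90 for GstE1. GstE6 had 43.3, 22.3 and 15.7 CPM in SG, against 19.3, 16.6 and 17.3 CPM in B-D (log2 fold change 0.61 ± 0.37, adjusted p = 0.171). SG replicate 1 alone was high there and the other SG libraries lay near B-D, and the direction turned with library size alone (-0.49).

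GstE2 and GstE14 were called lower. GstE2 (FBgn0063498, chromosome 2R, 18399486 to 18400375) had 0.916, 0.323 and 1.39 CPM in SG, against 18.3, 17.6 and 20.8 CPM in B-D (log2 fold change -4.42 ± 0.49, adjusted p = 3.76e-04), from 34, 10 and 48 counts in SG, against 1506, 1169 and 1661 counts in B-D. GstE14 (FBgn0033817, chromosome 2R, 13239729 to 13241013), also known as noppera-bo, is needed in the prothoracic gland for the synthesis of the moulting hormone ecdysone. It had 1.27, 0.0645 and 0.870 CPM in SG, against 14.9, 14.0 and 13.0 CPM in B-D (log2 fold change -4.23 ± 0.78, adjusted p = 0.00300), from 47, 2 and 30 counts in SG, against 1231, 928 and 1036 counts in B-D. The 2 counts of SG replicate 2 lie under the floor of 3 counts, so GstE14 was not detected in that library. Leaving out SG replicate 1 gave a log2 fold change of -4.85, and leaving out SG replicate 2 gave -3.68.

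All 4 Theta genes were called higher in SG with TMM, with a median log2 fold change of 1.57, though GstT2 (-0.28) and GstT3 (-0.06) turned with library size alone. GstT1 had 112, 99.2 and 111 CPM in SG, against 24.8, 23.3 and 25.0 CPM in B-D (log2 fold change 2.14 ± 0.09, adjusted p = 3.09e-05). GstT4 had 106, 79.4 and 88.1 CPM in SG, against 22.6, 18.7 and 22.6 CPM in B-D (log2 fold change 2.09 ± 0.14, adjusted p = 8.10e-05). In both genes every SG library was more than 3-fold above the highest B-D library. GstT3 had 16.5, 11.3 and 11.5 CPM in SG, against 8.01, 5.86 and 5.27 CPM in B-D (log2 fold change 1.04 ± 0.24, adjusted p = 0.00763). GstT2 had 19.6, 19.0 and 18.9 CPM in SG, against 11.2, 9.74 and 11.8 CPM in B-D (log2 fold change 0.81 ± 0.11, adjusted p = 7.54e-04), and 25.1% of its exons lie under CG12926 on the other strand.

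The Zeta genes, neighbours on chromosome 3R, changed in opposite directions. GstZ1 (FBgn0037696, chromosome 3R, 9455517 to 9456546) had 24.1, 29.6 and 30.0 CPM in SG, against 6.42, 5.51 and 6.88 CPM in B-D (log2 fold change 2.15 ± 0.14, adjusted p = 7.12e-05), without overlap. GstZ2 (FBgn0037697, chromosome 3R, 9456815 to 9460652) was the second most abundant member per kb in B-D and had 18.8, 2.16 and 24.5 CPM in SG, against 320.3, 342 and 346 CPM in B-D (log2 fold change -4.47 ± 0.87, adjusted p = 0.00375). SG replicate 2 held 67 counts of GstZ2, against 698 and 846 in SG replicates 1 and 3, and without it the log2 fold change was -3.93.

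The Omega genes divided likewise. GstO2 had 143, 152 and 151 CPM in SG, against 77.2, 71.5 and 72.8 CPM in B-D (log2 fold change 1.01 ± 0.08, adjusted p = 1.01e-04), and turned to -0.09 with library size alone. GstO1 (FBgn0035907, chromosome 3L, 8523742 to 8524866) had 0.836, 0.678 and 1.02 CPM in SG, against 5.61, 5.23 and 5.78 CPM in B-D (log2 fold change -2.71 ± 0.21, adjusted p = 1.11e-04), with all SG libraries below B-D. GstO3 had 49.2, 51.3 and 49.3 CPM in SG, against 44.6, 32.9 and 46.1 CPM in B-D (log2 fold change 0.28 ± 0.14, adjusted p = 0.119), not called with TMM and called lower with library size alone (-0.82). Another Omega gene, sepia (se, an enzyme of the red eye pigments called drosopterins), carries another symbol and had 1.02, 1.45 and 1.94 CPM in SG, against 1.39, 1.37 and 1.37 CPM in B-D (log2 fold change 0.10 ± 0.27, adjusted p = 0.755).

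GstS1 (FBgn0010226, chromosome 2R, 17093246 to 17099501), the only Sigma gene and an abundant protein of flight muscle, was modestly lower in SG, with 217, 153 and 140.1 CPM in SG, against 291, 267 and 295 CPM in B-D (log2 fold change -0.74 ± 0.18, adjusted p = 0.00993). The SG libraries lay below B-D, SG replicate 1 closest.

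Levels of different genes were compared as CPM per kb of exon. GstD1 stood first in both tissues, at 4069 CPM per kb in SG and 348 CPM per kb in B-D, and did not overlap with the next gene in either. In SG the next were GstE9 (313 CPM per kb), GstD7 (287), GstE7 (213), GstD3 (205), GstD10 (176), GstE12 (160), GstE3 (134), GstD9 (112) and GstT1 (108), and every gene of this run overlapped with its neighbour in the order. In B-D the next were GstZ2 (145 CPM per kb), GstS1 (125), GstD3 (93.8) and GstE12 (57.5), each separate from its neighbours. Only GstD1, GstD3, GstD9 and GstE12 (4 genes) were among the 10 highest of both tissues. Across the 35 members the levels of the tissues had a Spearman correlation of 0.44, a description over genes of the same libraries. GstE9 moved most in this order: second in SG and number 30 in B-D.

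The Delta genes lie within 20.8 kb of chromosome 3R (12364776 to 12385624, Release 6), in 1 array with GstD10, GstD9 and GstD1 on the minus strand and the others on the plus strand. The 10 genes from GstD10 to GstD8 were all called higher, over log2 fold changes from 0.84 to 5.72, and GstD11 at the far end was called lower. Neighbours on 1 strand, GstD2 to GstD11, therefore spanned -0.63 to 5.72. On chromosome 2R, 10 Epsilon genes lie within 13.2 kb (18396638 to 18409835), of which GstE3, GstE4, GstE5, GstE7, GstE8 and GstE9 were called higher, GstE2 lower, GstE1 and GstE6 neither, and GstE10 was not tested. GstE11 to GstE14 lie elsewhere on 2R.

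**Figure D4:**
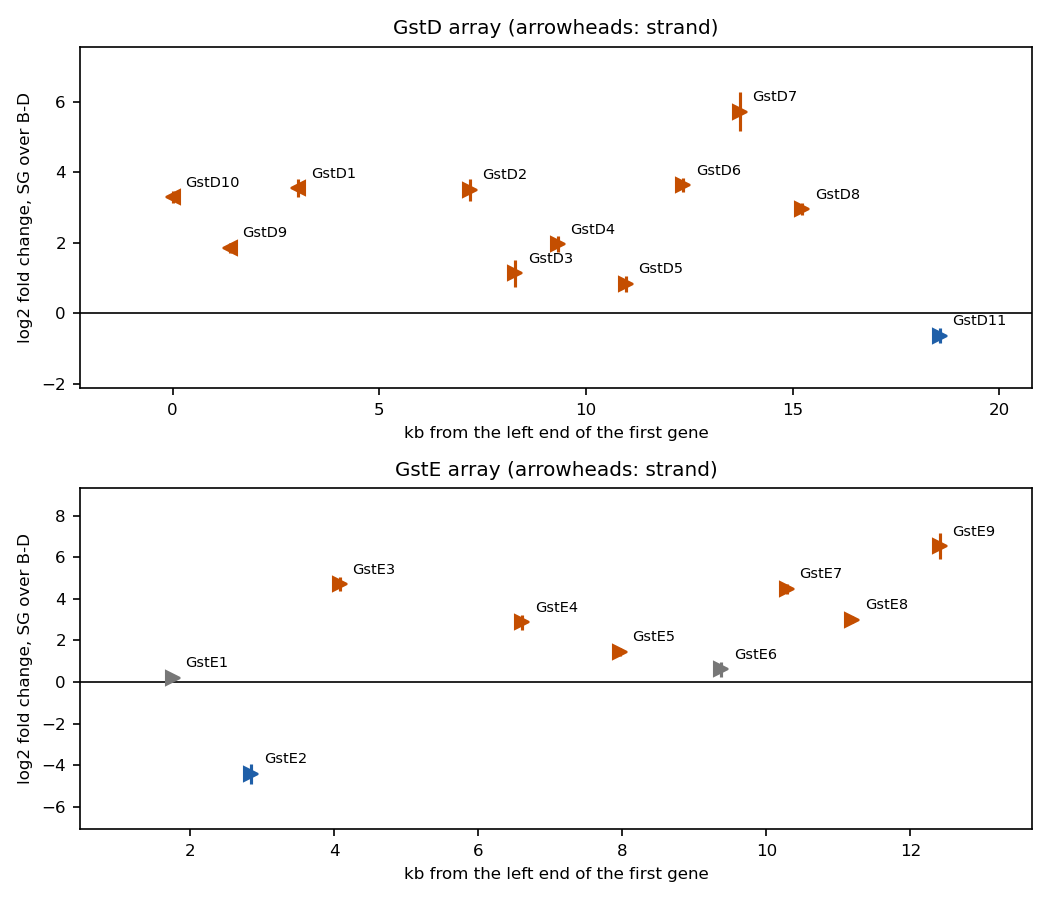
Log2 fold change, SG over B-D (bars, SE), of the genes of the GstD and GstE arrays against the distance in kb from the left end of the first gene. GstE10, the first gene of the GstE array, was not tested and is left out. With TMM, GstD11 is the gene of the GstD array below 0, and in the GstE array GstE2 (-4.42) lies between GstE1 (0.20, negative with library size alone) and GstE3 (4.71).

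Adjacent genes could differ by a wide margin. Ratios of 2 genes within a library do not depend on the scaling, and the following pairs were chosen after their values were seen, so they are given without a test. GstE2 ends 337 bases before GstE3 begins, on the same strand. The log2 ratio of GstE3 to GstE2, per kb, was 7.14, 8.71 and 6.05 in SG, against -1.49, -2.33 and -2.52 in B-D. GstE2 was therefore the more abundant of the pair in every B-D library and the scarcer in every SG library. GstZ1 and GstZ2 are 268 bases apart, and their log2 ratio was 1.71, 5.12 and 1.64 in SG, against -4.29, -4.61 and -4.31 in B-D. This pair also exchanged its order. For GstO2 and GstO1, 240 bases apart, the ratio was 6.55, 6.94 and 6.35 in SG, against 2.91, 2.90 and 2.79 in B-D, with GstO2 ahead throughout.

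Markers of other tissues were read beside these results. The members called lower were set beside the marker lists of B-D cells, each as the level in SG replicates 1, 2 and 3 in percent of the B-D mean. GstZ2 stood at 5.60%, 0.643% and 7.30%, GstE14 at 9.07%, under the 0.693% that 3 counts allow, and 6.2%, and GstE2 at 4.85%, 1.71% and 7.37%. The median of the 7 neuron markers was 4.58%, 1.1% and 6.999%, lowest in SG replicate 2 like these 3 genes. GstO1 stood at 15.1%, 12.2% and 18.3%, the 5 disc markers at a median of 10.1%, 8.60% and 11.5%, the 5 hemocyte markers at 21.6%, 11.002% and 19.2% and the 5 muscle markers at 27.7%, 16.04% and 25.7%. GstO1 and the median of each of these lists were likewise lowest in SG replicate 2, as was the median of the 3 glia markers. Not every marker followed its median. The disc marker wg was lowest in SG replicate 1 and vg in SG replicate 3, and the glia marker moody was highest in SG replicate 2. GstS1 was well above all of them, at 76.5%, 53.8% and 49.3%. GstS1 was lowest in SG replicate 3 instead. GstD11 had 12, 10 and 10 counts in SG, too few to order its libraries. The share of all genes called lower that were lowest in SG replicate 2 is not given here. The part of cells of the B-D types in the SG levels was not tested. From SG replicate 2 alone against the 3 B-D libraries, with the spread taken from B-D only, the log2 fold change was -7.26 for GstZ2 and -5.84 for GstE2. In that library GstE14 was at least 144-fold lower than the B-D mean, taking 3 counts as its level.

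**Figure D5:**
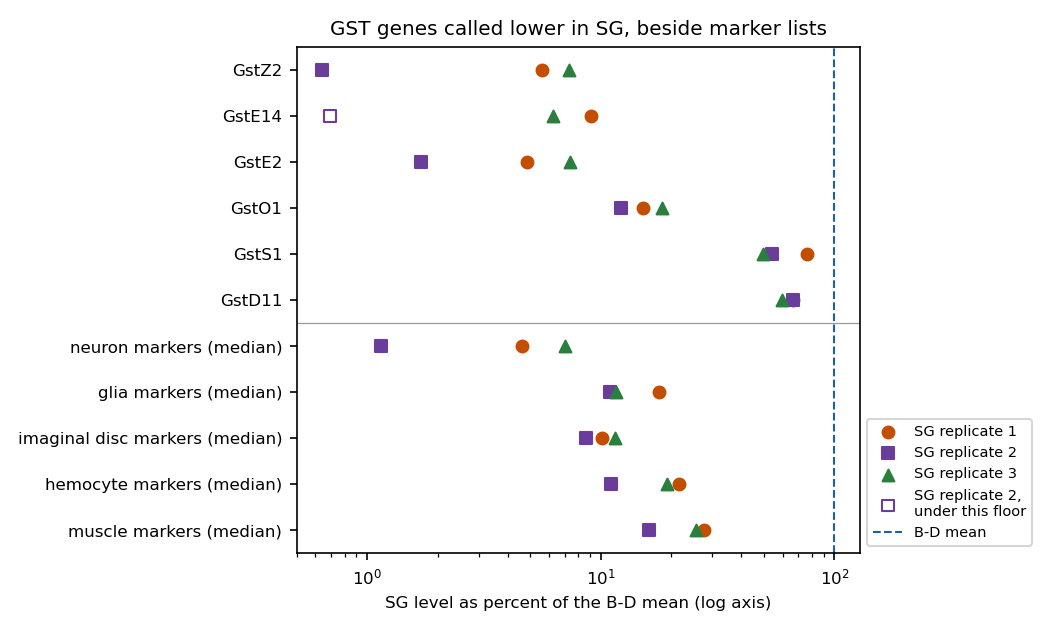
Level in each SG library as percent of the B-D mean (log axis) for the 6 GST genes called lower in SG, above the medians of 5 marker lists. The open square is the level that 3 counts would give GstE14 in SG replicate 2. GstZ2, GstE14, GstE2, GstO1 and the medians of all 5 marker lists are lowest in SG replicate 2. GstS1 and GstD11 lie above 49% in every SG library.

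The members called higher were set beside the fat body markers, whose sum was 1.49-fold higher in SG replicate 1 than in SG replicate 3 and 6.13-fold higher in B-D replicate 1 than in B-D replicate 2. Not every marker followed the sum. In SG, apolpp had 23848.5, 22660.4 and 23052.3 CPM, Fbp2 1087, 899 and 1578 CPM and Fbp1 23.6, 135 and 642 CPM. In B-D, Fbp1 and Fbp2 were highest in replicate 3. Of the 24 members called higher, 9 followed the SG order of the fat body sum, replicate 1 over 2 over 3 (37.5%). This order held in 36.4% of all genes called higher. In B-D, 16 of the 24 were highest in replicate 1 (66.7%, against 55.2% of all genes called higher). The level in B-D replicate 1 less that in B-D replicate 2 was 1.58% of the SG mean for the sum of the fat body markers. Over the 24 members this difference had a median of 2.17% of the SG mean and ran from -1.71% for GstD9 to 16.5% for GstT3. The part of fat body RNA in the SG levels of GST genes was not tested, since no SG library was free of it.

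Genes that supply or use glutathione, and relatives of these, were read from the same fit. Beside the counts in this and the following lists stand the shares over all genes tested. These were 34.5% higher and 35.3% lower with TMM, and 14.0% and 62.5% with library size alone. Of 4 genes of glutathione synthesis, Gclm and Gclc, the subunits of glutamate-cysteine ligase, were called higher under both scalings. Gclm had 67.0, 73.9 and 109.6 CPM in SG, against 13.1, 11.5 and 10.9 CPM in B-D (log2 fold change 2.82 ± 0.22, adjusted p = 1.12e-04). Gclc had 199.8, 307 and 197 CPM in SG, against 57.2, 47.3 and 40.7 CPM in B-D (log2 fold change 2.28 ± 0.23, adjusted p = 2.82e-04). The glutathione synthetase genes Gss1 and Gss2 had 0 counts in all 6 libraries, and as copies of one another they are uncertain.

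A further 13 genes encode glutathione-dependent enzymes, homologues of such enzymes or GST-fold proteins. With TMM in edgeR 10 were called higher and none lower (median log2 fold change 1.27). With library size alone 5 were called higher and 3 lower. DESeq2 and limma-voom called 0 lower, and 1 gene, gfzf, was lower at an unadjusted p under 0.05. It passed the adjusted threshold with libraries that did not overlap and missed the call by the size of its fold (log2 fold change -0.45 ± 0.07, adjusted p = 0.00174). The microsomal GST gene Mgstl had 101, 94.5 and 93.6 CPM in SG, against 20.2, 19.1 and 21.0 CPM in B-D (log2 fold change 2.27 ± 0.08, adjusted p = 2.76e-05). The glutaredoxin gene Grx1 had 96.6, 105 and 112 CPM in SG, against 22.7, 22.2 and 24.5 CPM in B-D (log2 fold change 2.17 ± 0.09, adjusted p = 3.09e-05). Ggt-1, a gamma-glutamyl transferase, which breaks glutathione and its conjugates down outside the cell, had 52.3, 54.7 and 44.1 CPM in SG, against 3.52, 2.39 and 3.33 CPM in B-D (log2 fold change 4.03 ± 0.19, adjusted p = 3.48e-05). PHGPx, a glutathione peroxidase homologue, had 331, 282 and 317 CPM in SG, against 82.7, 75.5 and 72.3 CPM in B-D (log2 fold change 2.01 ± 0.10, adjusted p = 4.19e-05). All 4 were called higher under both scalings.

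Of the 3 CncC regulators, cnc was called higher with TMM, with 297, 330.0 and 380.4 CPM in SG, against 122, 131 and 125 CPM in B-D (log2 fold change 1.41 ± 0.12, adjusted p = 1.35e-04), and was not called with library size alone (0.32). Keap1 (0.16, adjusted p = 0.559) and maf-S (-0.24, adjusted p = 0.0480) were not called with TMM, and both were called lower with library size alone. Every SG library of maf-S lay below B-D, and maf-S missed the call by the size of its fold. The libraries of Keap1 overlapped.

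Of 19 genes of peroxide and superoxide defence tested, 13 were called higher and none lower with TMM in edgeR (median log2 fold change 0.94). Library size alone gave 7 higher and 5 lower. Over all genes tested, 34.5% were called higher and 35.3% lower with TMM, and 14.0% and 62.5% with library size alone. DESeq2 and limma-voom called 0 lower, and 0 were lower at an unadjusted p under 0.05. The catalase gene Cat had 856, 650.1 and 733 CPM in SG, against 94.2, 70.7 and 79.2 CPM in B-D (log2 fold change 3.20 ± 0.17, adjusted p = 4.30e-05). Genes for enzymes that make NADPH, which keeps glutathione reduced, were among them. Pgd of the pentose phosphate pathway had 478, 371 and 263 CPM in SG, against 27.6, 20.4 and 18.2 CPM in B-D (log2 fold change 4.07 ± 0.29, adjusted p = 9.24e-05). Zw, glucose-6-phosphate dehydrogenase, had 66.7, 56.8 and 37.7 CPM in SG, against 4.81, 3.99 and 3.16 CPM in B-D (log2 fold change 3.75 ± 0.28, adjusted p = 1.01e-04). Idh, isocitrate dehydrogenase, had 1845, 1763 and 1439 CPM in SG, against 254, 214 and 220.0 CPM in B-D (log2 fold change 2.88 ± 0.15, adjusted p = 4.03e-05). Prx2540-2, Prx2540-1 and Prx3 were also called higher under both scalings. The rest called with TMM had smaller folds, from 0.61 for Jafrac1 to 1.12 for Ccs. These were Jafrac1, Jafrac2, Sod1, Sod2, Trxr-1 and Ccs, and none of them was called with library size alone.

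In the breakdown of phenylalanine and tyrosine, the pathway of the Zeta enzymes, 1 of 3 genes tested was called higher and 1 lower with TMM. Library size alone gave 1 higher and 2 lower. Faa was not called with TMM, though its SG libraries lay below B-D (log2 fold change -0.55 ± 0.25, adjusted p = 0.0834). It was called lower with library size alone (-1.64). The phenylalanine hydroxylase gene Hn had 209, 211 and 189 CPM in SG, against 5.20, 2.44 and 3.05 CPM in B-D (log2 fold change 5.83 ± 0.34, adjusted p = 5.12e-05). The homogentisate dioxygenase gene hgo, which acts just before the Zeta step, had 0.0539, 0.0323 and 0.116 CPM in SG, against 0.424, 0.527 and 0.451 CPM in B-D (log2 fold change -2.74 ± 0.41, adjusted p = 0.00126). SG replicates 1 and 2 of hgo lie under the floor of 3 counts. Of 6 drosopterin genes, 4 were called higher and Pu lower with TMM (median log2 fold change 1.00), against 1 higher and 2 lower with library size alone. The gene purple (pr) had 78.4, 71.2 and 80.4 CPM in SG, against 32.5, 28.3 and 32.7 CPM in B-D (log2 fold change 1.30 ± 0.10, adjusted p = 1.03e-04). DhpD had 112, 87.1 and 69.5 CPM in SG, against 22.7, 18.5 and 18.9 CPM in B-D (log2 fold change 2.16 ± 0.20, adjusted p = 1.99e-04), and was the one called higher under both scalings. The sepiapterin reductase gene Sptr had 31.5, 33.1 and 33.7 CPM in SG, against 17.6, 15.0 and 16.5 CPM in B-D (log2 fold change 1.00 ± 0.09, adjusted p = 2.02e-04). The gene clot (cl) had 94.3, 81.1 and 69.7 CPM in SG, against 45.4, 36.6 and 40.8 CPM in B-D (log2 fold change 1.00 ± 0.14, adjusted p = 0.00107). In all 4 genes every SG library lay above B-D with TMM.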

How the data were processed

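RNA of 3 SG and 3 B-D libraries was prepared by the authors with a stranded poly(A) kit and read from a single end. The submitters' processing notes name FastQC 0.11.5 for quality control, STAR 2.6.1a for alignment, to Release 6 of the fly genome per the study's methods, and featureCounts for exon counts. What the authors deposited are whole-number counts, not normalized, with the exon length of each gene. The strand setting and the treatment of multimapping reads were not given in the sources used here, so counts of overlapping genes and of near-identical paralogs are uncertain. The authors also deposited fold changes and p-values of their own comparison (DESeq2 1.14.1), which were not used here.

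Group and replicate were taken from the sample titles. Equal numbers were taken to pair the libraries, because SG and B-D RNA came from shared larvae per the study's methods. Deviations of same-numbered libraries correlated at 0.354, 0.0667 and 0.298. SG was tested against B-D with edgeR 4.0.16, run under R 4.3.3 (filterByExpr, TMM, quasi-likelihood F test with tissue as the only term), with Benjamini-Hochberg adjustment over the 11369 genes tested, of 17493. The thresholds, an adjusted p of 0.05 and a log2 fold change of 0.5, are those of the study. Standard errors come from the same fit. Depth per library was between 45023997 and 56583711 counts, and a floor of 3 counts equals 0.0530 to 0.0666 CPM before scaling, which covers counting error only. Pairs of libraries within a tissue differed far beyond counting noise, with chi-square over its degrees of freedom at 38.0 to 539. Gene positions and exon overlaps were taken from the BDGP6.54 annotation, whose exon lengths equal the deposited lengths in 35 of 35 members. The code was tested on simulated data.

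Every member was accounted for. Of the other lists, called genes were eligible for naming, with values for up to 4 per list, those of smallest p. Members, lists and markers were chosen with earlier results of these data known. Alternatives were RLE and upper quartile scaling, library size alone, no filter, DESeq2 1.42.0, limma 3.58.1 (voom), a replicate block, and leaving out libraries.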

Additional observations from a re-analysis of the deposited data

How the results depend on the processing

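Between 23 and 25 members were called higher and between 5 and 6 lower under RLE or upper quartile scaling, no filter, DESeq2, limma-voom and leaving out each library in turn, against 24 and 6. SG replicate 2 alone, where the spread comes from the B-D libraries only and the lone library is assumed to vary like them, gave 23 and 5. Library size as the only scale gave 16 higher and 9 lower, and all 16 were among the 24. It reversed the log2 fold change of GstD5 (-0.26), GstE1 (-0.90), GstE6 (-0.49), GstE11 (-0.96), GstE13 (-0.091), GstO2 (-0.086), GstO3 (-0.82), GstT2 (-0.28) and GstT3 (-0.064). Upper quartile scaling reversed GstE11 (-0.046). GstD3 lost its call with upper quartile scaling (adjusted p = 0.0659), GstD5 with SG replicate 2 alone (adjusted p = 0.105), and GstD11 with no filter (adjusted p = 0.0661) and SG replicate 2 alone (adjusted p = 0.239), all from edgeR. GstE6 was called higher without SG replicate 3 (log2 fold change 0.91, adjusted p = 0.0344), and its log2 fold change was 0.11 without SG replicate 1. GstE4 had 2.15 from SG replicate 2 alone. In limma-voom GstE14 had -4.90. The excess of GST counts in SG was 0.175 percentage points, 0.147 to 0.212 with a library left out, and 0.307 once the 10 most abundant genes of each library were removed. The same removal, applied after seeing the data to the members without GstD1, turned their difference of -0.0151 percentage points to 0.0239. The causes of these moves were not tested.

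With a replicate block 23 members were called higher and 5 lower. GstD3 (adjusted p = 0.0735) and GstD11 (adjusted p = 0.0912) lost their calls, and no other member's call changed. With 3 libraries per tissue, groups were too small for a check for single outlying samples, and genes such as GstE10, GstD11 and GstE4 are limited by their counts.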
